A study of Mus musculus with 9 samples.

Results

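The genes described here are the ligand, receptors and Smads of TGF-beta signalling together with one Smad corepressor, in RNA-seq of LSKs, the Lin lo Sca1+ Kit+ fraction of mouse bone marrow that holds haematopoietic stem cells (HSCs) and multipotent progenitors. They were taken by symbol: Tgfb1, Tgfbr1, Tgfbr2, Tgfbr3, Smad2, Smad3, Smad4, Smad6, Smad7 and Skil, which are 10 of the 24060 named genes of the count table. All 10 passed the filter on low counts, which 13355 genes passed in all. The study asked how MSI2, an RNA-binding protein of stem cells, alters LSKs in NHD13 mice, a model of myelodysplastic syndrome that carries a NUP98-HOXD13 fusion transgene under the Vav promoter, which is active across blood cells.

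Bone marrow of 3 kinds was transplanted: control marrow of the C57BL/6 strain (3 libraries), NHD13 marrow (2 libraries) and NHD13/MSI2 marrow (4 libraries, NHD13&MS2 in the labels), which carries in addition a doxycycline-inducible MSI2 cassette at Col1A1 with the rTTA activator at ROSA26. Hosts of all 3 groups were irradiated congenic CD45.1 animals, doxycycline was fed for 3 months, and CD45.2 cells of the donor were sorted. Host and helper cells carry CD45.1. The labels give an age of 4 months for all 9 libraries without saying whether it is that of the donor or of the graft. The paper places this RNA-seq at 4 months after transplantation, before disease began. It gives the age of primary donors as 3 to 4 months. Whether control and NHD13 marrow carried the activator is not given in the sources used here, and the word dox stands in the names of the 4 NHD13/MSI2 libraries alone. The labels call all 9 libraries LSK, yet the names of control replicates 2 and 3 hold the words MPP and HSC, that of control replicate 1 the word Bulk, and that of NHD13 replicate 2 lacks the word NHD13. Nothing in the labels says that replicates came from separate mice, so the p-values below measure the spread between these libraries.

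TGF-beta is released in a latent form and acts, once freed, on a pair of receptor kinases: the ligand binds the type II receptor TGFBR2, which recruits and phosphorylates the type I receptor TGFBR1, which in turn phosphorylates SMAD2 and SMAD3. These join SMAD4 and enter the nucleus, where corepressors of the SKI family hold them in check, while SMAD6 and SMAD7 act as feedback inhibitors at the receptors. In bone marrow the pathway is known for keeping HSCs quiescent.

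Tgfbr2 was the member that passed the test in a comparison, so the start of its gene is printed here beside that of its partner Tgfbr1, whose level is set against it below. Both are RefSeq promoters of the build GRCm38.p6, with 250 bases before and 50 after the start site, on the strand of the gene. Tgfbr2 lies at chr9:116175314-116175613 on the minus strand and the first of the Tgfbr1 start sites at chr4:47352972-47353271 on the plus strand. Capitals mark matches, on either strand, to CAGAC (the Smad box, which reads GTCTG on the other strand), GGGCGG (the Sp1 GC box) or CCAAT (the CCAAT box).
Tgfbr2: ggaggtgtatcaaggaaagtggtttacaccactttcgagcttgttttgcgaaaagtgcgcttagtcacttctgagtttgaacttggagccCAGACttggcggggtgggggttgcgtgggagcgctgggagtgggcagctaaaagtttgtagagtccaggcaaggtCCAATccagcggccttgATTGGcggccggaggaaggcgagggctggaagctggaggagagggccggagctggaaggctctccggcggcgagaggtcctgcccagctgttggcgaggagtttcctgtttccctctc
Tgfbr1: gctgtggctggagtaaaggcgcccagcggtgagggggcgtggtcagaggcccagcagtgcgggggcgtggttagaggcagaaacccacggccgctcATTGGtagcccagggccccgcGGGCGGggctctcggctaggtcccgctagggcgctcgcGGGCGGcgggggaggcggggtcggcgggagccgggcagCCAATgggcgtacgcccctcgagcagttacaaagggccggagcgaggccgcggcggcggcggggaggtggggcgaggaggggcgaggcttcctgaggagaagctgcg

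The Tgfbr2 stretch was 59.0% G and C and held 1 CAGAC, 160 bases before the start, and 2 CCAAT matches, 85 and 68 bases before it, with no GGGCGG in this window. That of Tgfbr1 was 74.7% G and C and held 2 GGGCGG, 133 and 95 bases before the start, and 2 CCAAT, 154 and 57 bases before it, with no CAGAC in this window. The second Tgfbr1 start site (chr4:47385966-47386265) did hold 1 CAGAC, 203 bases before the start, and 1 CCAAT, so the receptors are not told apart by these letters. These letters are common: of 32544 mouse promoters of this length 49.5% held CAGAC, 35.9% GGGCGG and 37.4% CCAAT. Also searched were TGANTCA (the AP-1 site), TGACGTCA (the cAMP response element), CGGAAG (an ETS site) and TATAAA (the TATA box), which stood in 7.79%, 1.80%, 17.0% and 13.6% of promoters and in neither of these stretches. Entries were found for 5 of the 10 members. Tgfb1 had 6 GGGCGG matches, Smad6 had 4 with 1 CCAAT, and Smad3 had 2. A match is a run of letters and was not tested as a site.

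The libraries held 19242153 to 23013493 counts on named genes. Levels are CPM, counts scaled to a common total, with library sizes scaled by TMM, a factor that sets the bulk of genes equal between libraries. The factor was 0.785 in NHD13/MSI2 replicate 4 and 0.969 to 1.09 in the other 8. Replicate 4 also stood apart in its counts, with a chi-square per gene of 327 to 354 against the other NHD13/MSI2 replicates, where all other pairs within a group gave 16.0 to 62.5. A gene is called changed here at an adjusted p under 0.01 in the quasi-likelihood test of edgeR, adjusted by Benjamini-Hochberg over the 13355 genes, which is also the test behind every adjusted p given here unless another is named. Symbols that come after the March genes, all 10 members among them, sit 2 rows above their counts as deposited and were moved down, so every value below rests on that move. After the move the rank correlation of counts with exon length was 0.456 over these rows, against 0.305 before it and 0.473 over the rows that precede the March genes. Of 77 ribosomal protein genes among the moved names, 69 had a mean of at least 1000 counts after the move and 57 before it.

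Msi2 itself was checked first. Its level was 223, 316 and 266 CPM in the control libraries, 139 and 111 CPM in NHD13, and 88.0, 77.1, 82.8 and 241 CPM in the NHD13/MSI2 replicates, from 1 to 4. It was thus no higher with the transgene than without it, apart from replicate 4, which reached the control range. Msi2 counts therefore go against the label, although whether transgene reads were counted under this symbol is not given in the sources used here. The group is called the libraries labelled NHD13/MSI2 from here on, and every direction below is drawn from that label.

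The cells of the groups also differed in marker genes. The summed level of 10 HSC markers was 1502 to 2302 CPM in control, 1439 and 481 CPM in NHD13 replicates 1 and 2, and 53.7 to 101.5 CPM in the libraries labelled NHD13/MSI2, where 8 of the 10 were called lower than in control and 7 of 10 lower than in NHD13. Of all tested genes 6.55% were called lower than in control and 2.58% lower than in NHD13. Of 10 granulocyte-monocyte progenitor markers 3 were called higher than in control, where 4.49% of all tested genes were. The sum of the 10 went from 1767 to 2482 CPM in control through 3525 and 4461 CPM in NHD13 to 9174 to 15577 CPM. That sum was mostly Mpo (7845 to 13878 CPM in the last group), while Elane had a negative difference from control (-0.39, not called). Megakaryocyte and platelet markers (11, with Gp6 at 0 throughout) summed to 101 to 291 CPM in control, 778 and 108 CPM in NHD13 replicates 1 and 2, and 22.3 to 50.3 CPM. The 5 genes of the LSK sort summed to 4612 to 5054, 2651 to 3147 and 2569 to 3423 CPM in the same order of groups, with Cd34 and Flt3 called lower in the libraries labelled NHD13/MSI2 than in control. Ly6a, which encodes the Sca1 of the sort, went the other way, at 79.3 to 89.8 CPM in control, 69.0 and 48.3 CPM in NHD13 and 98.6 to 375 CPM in the libraries labelled NHD13/MSI2 (log2 difference from control 1.60, adjusted p = 0.0167 by edgeR, not called). In bulk RNA fewer cells of a type and less RNA per cell cannot be told apart, and what part these shifts have in the values below was not tested.

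Across the members the question was whether LSKs with NHD13, or with NHD13 and MSI2, carried the parts of TGF-beta signalling at the level of control LSKs. Tgfbr2 fell about 3-fold from control to the libraries labelled NHD13/MSI2, and no other member was called in that comparison. Its co-receptor Tgfbr3 was lower by a similar amount with a wider spread. Tgfbr1, Smad2 and Smad7 had overlapping levels in the 3 groups. Smad3 and Skil were each set by 1 library that stood far above its group. Beside this count of 1 of 10, 11.0% of all tested genes were called in the same comparison, so the members were called about as often as genes at large.

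**Figure D1:**
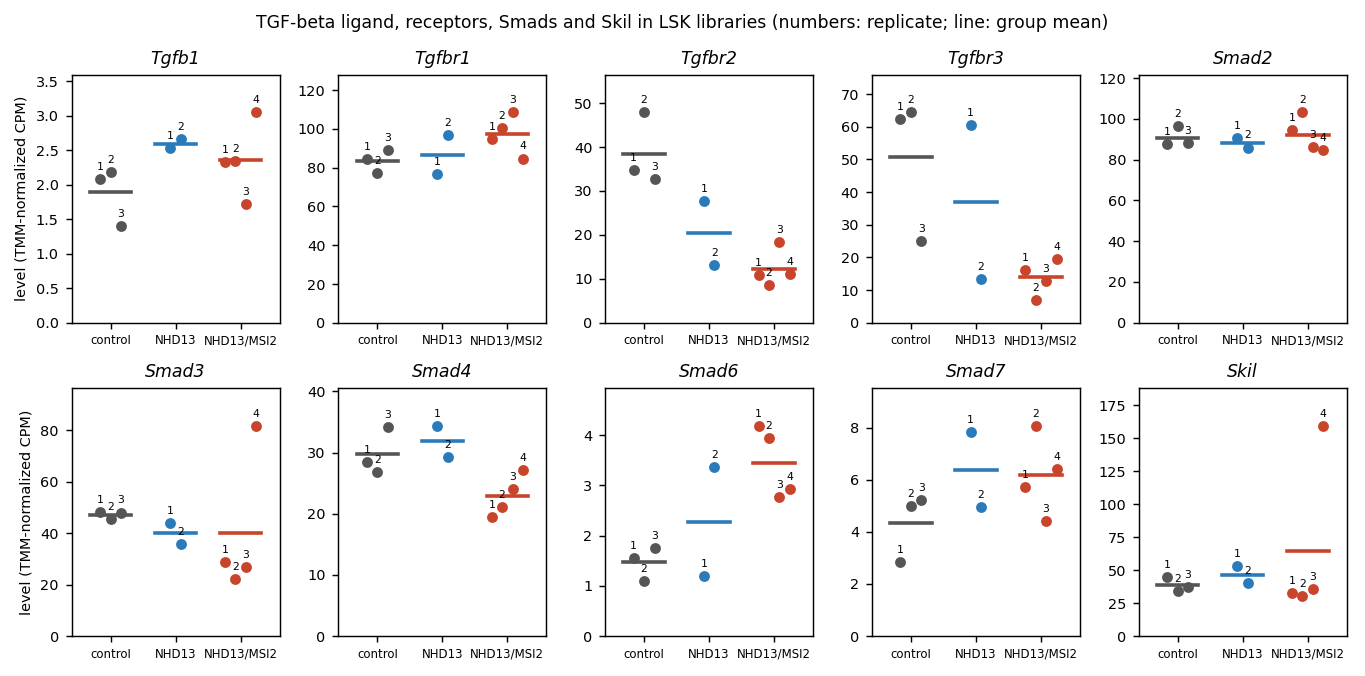
Level of each of the 10 genes (TMM-normalized CPM, linear axis from 0, its own scale in each panel) in every library, by group; points are libraries, numbers are replicates and lines are group means. Tgfbr2 and Tgfbr3 are lower in the 4 libraries labelled NHD13/MSI2 than in every control library, as are 20.4% of all tested genes. NHD13/MSI2 replicate 4 stands alone for Smad3 (81.8 CPM) and Skil (159.7 CPM).

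Compared per kilobase of exon, the order of the mean levels in control was Tgfbr1 (12.8 CPM per kb), Smad2 (10.3), Smad3 (8.53), Smad4 (8.03), Tgfbr3 (7.74), Tgfbr2 (4.70), Skil (3.99), Smad7 (0.965), Smad6 (0.458) and Tgfb1 (0.375). The ranges of Tgfbr1, Smad2 and Smad3 did not overlap over the 3 control libraries. Those of Smad3 and Smad4 did, as did those of Tgfbr3 with Smad3, Smad4, Tgfbr2 and Skil, and those of Tgfbr2 and Skil and of Smad6 and Tgfb1. The inhibitory Smads and the ligand thus stood far below the receptors and the other Smads. Lengths are those of GENCODE M21 on GRCm38, whereas the counts were made on mm9.

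Tgfb1, the ligand, lies on chromosome 7 (25687002 to 25705077, GRCm38) and was scarce. It had 2.09, 2.18 and 1.40 CPM in control replicates 1 to 3, 2.53 and 2.67 CPM in NHD13, and 2.33, 2.34, 1.72 and 3.05 CPM in the libraries labelled NHD13/MSI2, from 35 to 55 counts each. Both NHD13 libraries were a little above all 3 control libraries, as were those of 18.9% of all tested genes, and the libraries labelled NHD13/MSI2 overlapped both groups. None of its differences was called (log2 fold change 0.32, 95% interval -0.55 to 1.19, adjusted p = 0.618 by edgeR against control).

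Tgfbr1, the type I receptor kinase on chromosome 4 (47353222 to 47414931), was among the most even members. Its level was 84.4, 77.4 and 89.4 CPM in control, 76.6 and 97.1 CPM in NHD13, and 94.7, 100.7, 108.6 and 84.8 CPM in the libraries labelled NHD13/MSI2. The groups overlapped in all 3 comparisons. Between the libraries labelled NHD13/MSI2 and control the log2 difference was 0.22 with a 95% interval of -0.10 to 0.53 (adjusted p = 0.333), which is the span of differences that these libraries allow.

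Tgfbr2, the type II receptor that binds the ligand, lies on chromosome 9 (116084293 to 116175360, minus strand). It was counted at 34.7, 47.9 and 32.8 CPM in control, at 27.7 and 13.0 CPM in NHD13, and at 10.8, 8.68, 18.4 and 11.2 CPM in the libraries labelled NHD13/MSI2. All 4 of the latter lay under every control library, as did those of 20.4% of all tested genes, both NHD13 libraries lay under control as well (18.5% of all tested genes did so), and NHD13 replicate 2 lay among the libraries labelled NHD13/MSI2. The mean was 38.5 ± 8.21 CPM (SD, n = 3) in control, 20.4 ± 10.4 CPM (n = 2) in NHD13 and 12.3 ± 4.24 CPM (n = 4) in the libraries labelled NHD13/MSI2.

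The fall of Tgfbr2 from control to the libraries labelled NHD13/MSI2 was 3.13-fold (log2 fold change -1.65, SE 0.33, 95% interval -2.38 to -0.91, adjusted p = 0.00669 in edgeR's quasi-likelihood test). NHD13 and control differed by -0.91 on the log2 scale (adjusted p = 0.358), and the libraries labelled NHD13/MSI2 and NHD13 by -0.73 (adjusted p = 0.284), neither of which was called. The joint test of the 3 groups gave an adjusted p of 0.0173 and called none of the members, where it called 8.90% of all tested genes. Thus the groups at the ends of the range differed, and the place of NHD13 between them was not resolved with 2 libraries that differed from each other. The call against control was lost when 1 of 6 libraries was left out: control replicate 1 (-1.72, adjusted p = 0.0206 by edgeR), 2 (-1.46, 0.0328) or 3 (-1.75, 0.0186), or NHD13/MSI2 replicate 1 (-1.57, 0.0222), 2 (-1.49, 0.0204) or 4 (-1.59, 0.0114). Without any 1 of the 9 libraries the log2 difference stayed between -1.91 and -1.46.

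**Figure D2:**
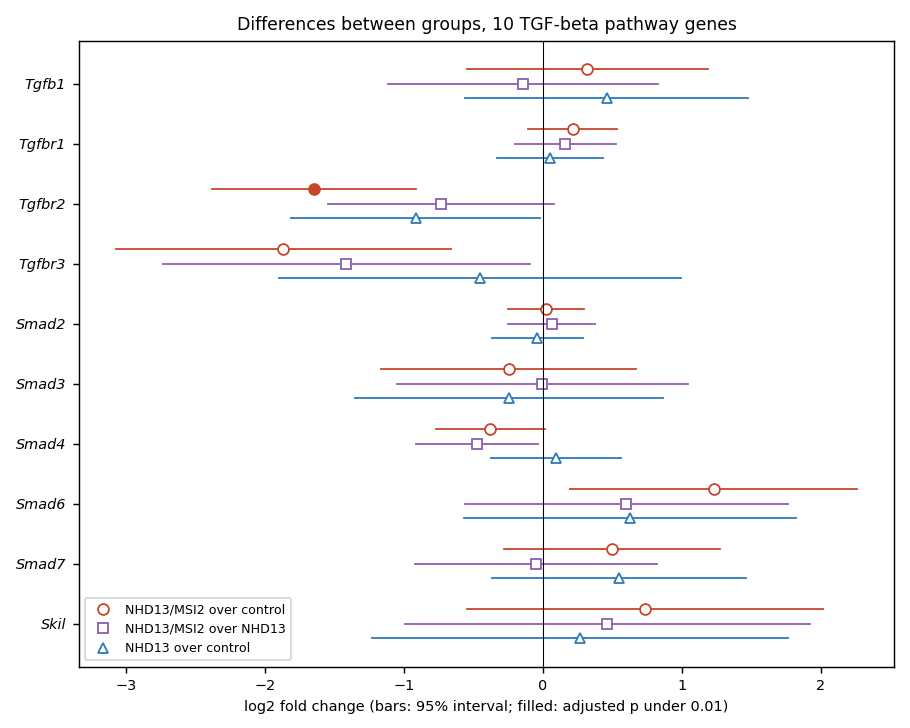
Fitted log2 fold change of each gene (horizontal axis) in the 3 comparisons, with 95% intervals as bars; filled symbols mark an adjusted p under 0.01. Tgfbr2 in the libraries labelled NHD13/MSI2 over control (-1.65) is the filled symbol, while the estimate of Tgfbr3 (-1.87) has a wider interval.

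The balance of the receptor pair shifted with it. Per kilobase, Tgfbr2 stood to Tgfbr1 at a ratio of 0.328, 0.493 and 0.293 in the control libraries, 0.289 and 0.107 in NHD13, and 0.0911, 0.0687, 0.135 and 0.105 in the libraries labelled NHD13/MSI2. The libraries labelled NHD13/MSI2 all lay under the control range. NHD13 replicate 1 was close to the lowest control library and NHD13 replicate 2 was within the range of the libraries labelled NHD13/MSI2. These ratios restate the counts of both genes within each library and do not depend on the scaling between libraries. The NHD13 replicates differed in the same order in the HSC marker sum (1439 and 481 CPM), whose part in the ratio was not tested.

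The 2 genes whose log2 CPM was most like that of Tgfbr2 over the 9 libraries, among 10971 genes with a mean of at least 50 counts, were Btbd3 (Pearson r = 0.976) and Mmp15 (r = 0.973). Btbd3 had 19.3 to 28.1 CPM in control, 19.0 and 3.80 CPM in NHD13, and 2.39 to 7.74 CPM in the libraries labelled NHD13/MSI2. Mmp15, a membrane-bound metalloproteinase, had 5.44 to 7.78 CPM in control, 2.58 and 0 CPM in NHD13 replicates 1 and 2, and 0 CPM in the libraries labelled NHD13/MSI2 except replicate 3, with 0.905 CPM. Both share with Tgfbr2 the split of the NHD13 replicates and a highest value in replicate 3 within the last group. The points are libraries of 3 groups, and the genes were picked out of many for their likeness.

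Tgfbr3, or betaglycan, is a co-receptor that presents ligand to TGFBR2. It lies on chromosome 5 (107106570 to 107289629), and 4.54% of its exon bases overlap the unclassified gene Gm43422 on the same strand. Its level was 62.5, 64.4 and 25.2 CPM in control, 60.7 and 13.3 CPM in NHD13, and 16.2, 6.98, 12.9 and 19.6 CPM in the libraries labelled NHD13/MSI2. Control replicate 3 and NHD13 replicate 2 were each far under the other libraries of their group. The lowest control library was still above all libraries labelled NHD13/MSI2, as it was for 20.4% of all tested genes. The difference of those libraries from control was -1.87 on the log2 scale (SE 0.54, 95% interval -3.07 to -0.66) and was not called (adjusted p = 0.0359 by edgeR). DESeq2, a second count test, gave it an adjusted p of 0.00384. Against NHD13 the difference was -1.41 (adjusted p = 0.196), which became 0.09 without NHD13 replicate 1 and -2.08 without NHD13 replicate 2, so its direction rested on which of both was kept. The same NHD13 replicate that was high in Tgfbr3, replicate 1, held 778 CPM of megakaryocyte and platelet markers against 108 CPM in replicate 2. Most other marker sums, that of the HSC markers among them, were also higher in replicate 1. Those of mast cell and basophil, T cell and stromal markers were higher in replicate 2. The part of any of these in the Tgfbr3 level was not tested.

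Smad2, one of the 2 Smads that the TGF-beta receptors phosphorylate, lies on chromosome 18 and was the most even of the members. Its level was 87.7, 96.3 and 88.2 CPM in control, 90.5 and 86.0 CPM in NHD13, and 94.7, 103.2, 86.2 and 84.9 CPM in the libraries labelled NHD13/MSI2. The groups overlapped throughout. The log2 difference of the libraries labelled NHD13/MSI2 from control was 0.02, with a 95% interval of -0.25 to 0.30 (adjusted p = 0.920 by edgeR).

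Smad3, the other of these Smads, lies on chromosome 9 (63646767 to 63757994). It was counted at 48.3, 45.5 and 48.1 CPM in control and at 44.0 and 35.9 CPM in NHD13. In the libraries labelled NHD13/MSI2 it was 28.7, 22.2 and 27.0 CPM in replicates 1 to 3 and 81.8 CPM in replicate 4. Replicates 1 to 3 lay under every library of the other groups and replicate 4 above every one. With all 9 libraries the difference from control was -0.25 on the log2 scale (SE 0.41, 95% interval -1.16 to 0.67, adjusted p = 0.729 by edgeR). Without replicate 4 it was -0.86 and called (adjusted p = 0.00239). Without replicate 4 the difference from NHD13 was -0.60 (adjusted p = 0.0333), which was not called, against -0.0022 with it.

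Smad4, the common partner of the receptor-activated Smads, also lies on chromosome 18. Its level was 28.5, 26.8 and 34.1 CPM in control, 34.4 and 29.3 CPM in NHD13, and 19.4, 21.0, 24.1 and 27.2 CPM in the libraries labelled NHD13/MSI2. All 4 of these were under both NHD13 libraries, as were those of 16.9% of all tested genes, and replicate 4 reached the lowest control library. The log2 difference was -0.47 from NHD13 (SE 0.20, adjusted p = 0.192) and -0.38 from control (SE 0.17, adjusted p = 0.166), and neither was called by edgeR.

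Smad6 and Smad7, the inhibitory Smads, were both scarce. Smad6, on chromosome 9 (63953076 to 64022059), had 1.55, 1.09 and 1.76 CPM in control, 1.20 and 3.36 CPM in NHD13, and 4.19, 3.94, 2.76 and 2.92 CPM in the libraries labelled NHD13/MSI2, from 23 to 81 counts each. Those 4 libraries were all above control, as were those of 15.3% of all tested genes, and NHD13 replicate 2 was within their range. The difference from control, 1.23 on the log2 scale (SE 0.46, 95% interval 0.19 to 2.26), was not called (adjusted p = 0.0936 by edgeR).

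Smad7, on chromosome 18, had 2.86, 4.98 and 5.24 CPM in control, 7.82 and 4.94 CPM in NHD13, and 5.74, 8.08, 4.43 and 6.43 CPM in the libraries labelled NHD13/MSI2. The groups overlapped in every comparison. Its difference from control was 0.50 on the log2 scale with a 95% interval of -0.28 to 1.28 (adjusted p = 0.360 by edgeR).

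Skil, which encodes the corepressor SnoN, lies on chromosome 3 (31095058 to 31122577). Its level was 44.6, 33.9 and 37.5 CPM in control, 52.8 and 40.5 CPM in NHD13, and 32.5, 30.5, 35.4 and 159.7 CPM in replicates 1 to 4 of the libraries labelled NHD13/MSI2. Replicates 1 to 3 lay at the lower end of the control range or under it, and replicate 4 was the highest library by far. The difference from control of 0.74 on the log2 scale (SE 0.57, adjusted p = 0.418 by edgeR) became -0.23 without replicate 4. That from NHD13 went from 0.47 (adjusted p = 0.745) to -0.49. Replicate 4 was 4.87 times the arithmetic mean CPM of the other replicates for Skil and 3.15 times for Smad3. For Tgfbr2 the same ratio was 0.884, for Tgfbr1 0.837 and for Smad2 0.897. On log2 CPM with a prior count of 2, replicate 4 differed from the mean of the others by 2.28 for Skil and 1.66 for Smad3. On that measure 11.5% of all tested genes lay above 1 and 14.8% below -1.

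**Figure D3:**
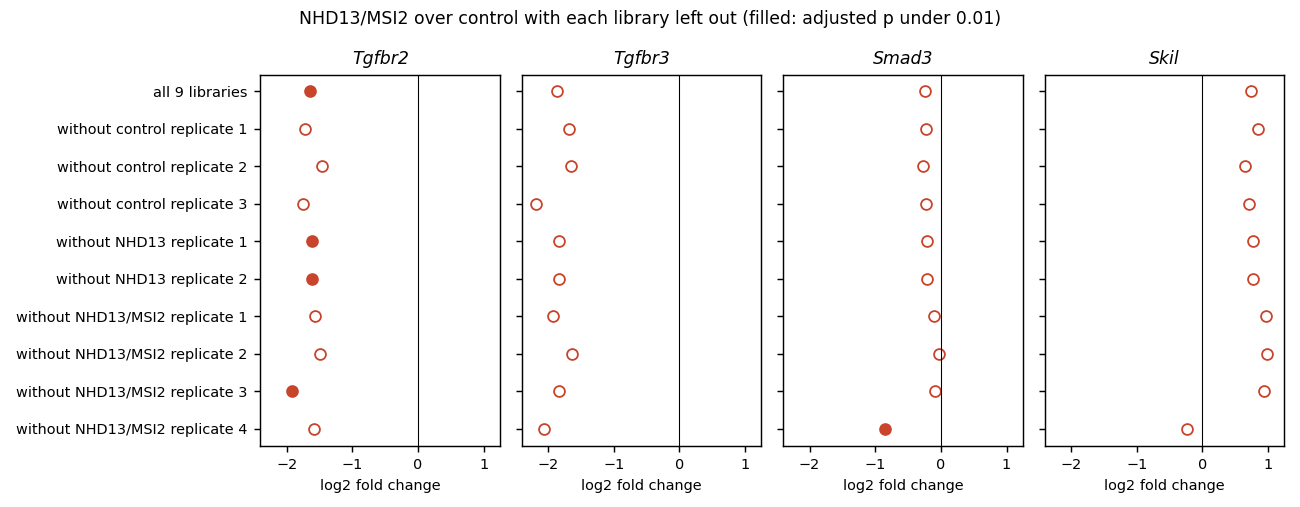
Log2 fold change of Tgfbr2, Tgfbr3, Smad3 and Skil in the libraries labelled NHD13/MSI2 over control (horizontal axes) with all 9 libraries and with each left out in turn (rows); filled points have an adjusted p under 0.01. Tgfbr2 stays between -1.91 and -1.46, and replicate 4 alone moves Smad3 to -0.86 and Skil to -0.23.

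In the 2 comparisons that involve NHD13 as a reference or as the test group, no member was called by edgeR. Against control, NHD13 had 1 member at an unadjusted p under 0.05 (Tgfbr2), and DESeq2 called 0 members. For the libraries labelled NHD13/MSI2 against NHD13 there were 2 (Tgfbr3 and Smad4), and DESeq2 again called 0. Of all tested genes 1.03% were called in NHD13 over control (0.824% higher and 0.210% lower) and 3.17% when the libraries labelled NHD13/MSI2 were set against NHD13 (0.584% higher and 2.58% lower). The median log2 difference over the 10 members was 0.07 in the former and -0.03 in the latter, and it was 0.12 in the libraries labelled NHD13/MSI2 over control. The comparisons share libraries and are not independent of each other.

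The wider pathway was read from a list of 77 genes in 11 roles, the 10 members included, of which 59 passed the filter. In the libraries labelled NHD13/MSI2 1 was called higher and 6 lower than in control, where 4.49% of all tested genes were higher and 6.55% lower. The median log2 difference over the 59 was -0.17, against -0.011 over all tested genes. Against NHD13 the same libraries had 1 gene of the list called, and it was lower. In NHD13 over control none was called by edgeR, where 13 had an unadjusted p under 0.05 and DESeq2 called 2. The 7 genes called against control became 1 without any one control library. They became 3, 2 and 3 without NHD13/MSI2 replicates 1, 2 and 3, and 16 without replicate 4. DESeq2 called 15. Over all tested genes 1474 were called against control with all 9 libraries, and 647 to 2066 with a library left out. That count was also lowest without a control library and highest without NHD13/MSI2 replicate 4. The 1 gene called against NHD13 became 0 without any one control or NHD13 library and 3 without NHD13/MSI2 replicate 4. The 0 of NHD13 over control became 2 without NHD13/MSI2 replicate 4.

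The gene called higher was Nrros, which encodes a myeloid surface protein that holds latent TGF-beta. It had 275, 316 and 309 CPM in control, 313 and 446 CPM in NHD13, and 547, 504, 552 and 531 CPM in the libraries labelled NHD13/MSI2. These 4 libraries were close to each other and above all the others, by 1.78-fold over control (log2 fold change 0.83, SE 0.16, adjusted p = 0.00517 by edgeR). The sum of 10 granulocyte-monocyte progenitor markers, mostly Mpo, was higher in the same libraries, and its part in this rise was not tested.

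Of the 6 lower genes, Ltbp3, a binding protein that tethers latent TGF-beta, fell from 11.1, 13.1 and 10.3 CPM in control to 0.103 to 1.30 CPM in the libraries labelled NHD13/MSI2 (log2 fold change -3.99, adjusted p = 0.00339 by edgeR), with 6.30 and 3.11 CPM in NHD13. Itgb6, a subunit of an integrin that frees latent TGF-beta, had 1.16 to 2.18 CPM in control and 3.13 and 2.52 CPM in NHD13, and no count in any library labelled NHD13/MSI2. Against a floor of 3 counts per library it was at least 10.2-fold lower there than in control (edgeR's adjusted p = 0.00177) and at least 17.8-fold lower than in NHD13 (adjusted p = 0.00396), the 1 gene of the list called in that comparison. These floors cover counting error only.

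Among the ligands Inha, the inhibin alpha subunit, had 0.475 to 2.16 CPM in control and none in the libraries labelled NHD13/MSI2, a level at least 7.50-fold lower (edgeR's adjusted p = 0.00713). Gdf3, a TGF-beta family ligand and the most abundant of the listed ones, had 31.0, 18.4 and 15.2 CPM in control, 17.4 and 4.99 CPM in NHD13, and 0 to 1.50 CPM in the libraries labelled NHD13/MSI2 (log2 fold change -4.53, adjusted p = 0.00355). Of the 15 listed ligands 5 were tested and 2 were called, so most of the family was at or near the limit of counting in LSKs.

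**Figure D4:**
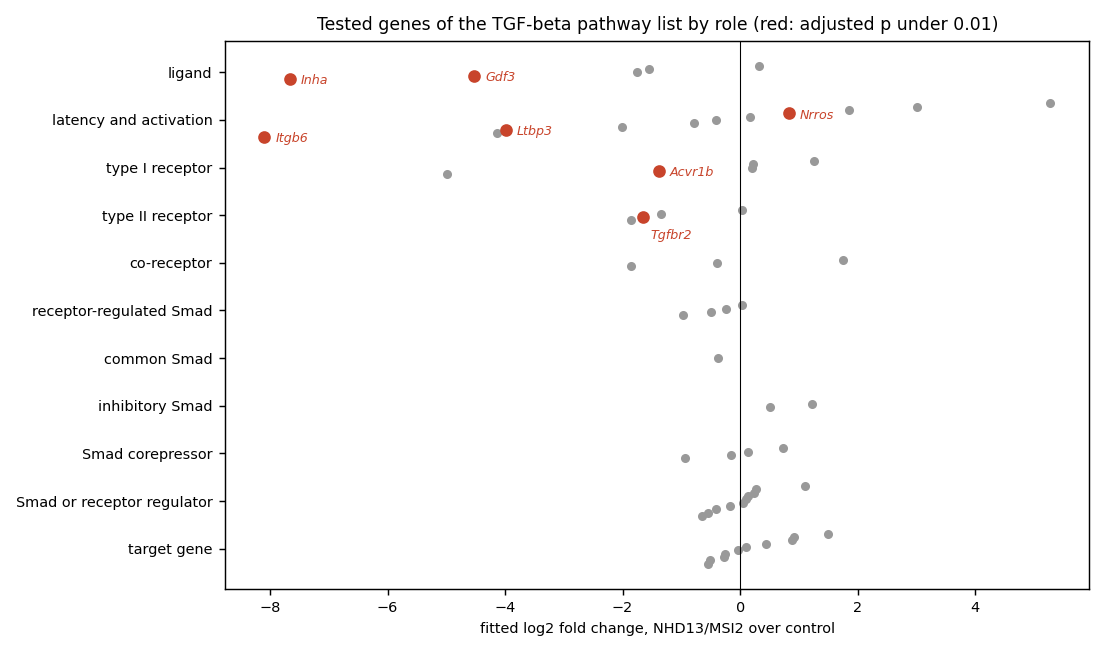
Fitted log2 fold change in the libraries labelled NHD13/MSI2 over control (horizontal axis) of the 59 tested genes of the pathway list, by role; each point is a gene and red points, named, have an adjusted p under 0.01. With all 9 libraries the called genes are ligands, latency and activation factors and receptors. None is a Smad, a corepressor, a regulator or a target. Of all tested genes 11.0% were called, and Smad3 was called when NHD13/MSI2 replicate 4 was left out. Inha and Itgb6 had no count in the libraries labelled NHD13/MSI2, so their fitted positions are no measure of size.

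The receptors held the other 2 calls. Acvr1b, the type I receptor for activin, had 19.7, 17.1 and 17.2 CPM in control, 6.90 and 5.53 CPM in NHD13, and 6.78, 6.38, 5.02 and 9.48 CPM in the libraries labelled NHD13/MSI2. Both groups with NHD13 lay under control without overlap, by -1.53 on the log2 scale in NHD13 (adjusted p = 0.0379 by edgeR, not called) and by -1.38 in the libraries labelled NHD13/MSI2 (adjusted p = 0.00444). Bmpr2, the type II receptor for bone morphogenetic proteins, had 55.5 to 59.0 CPM in control, 20.3 and 13.9 CPM in NHD13, and 10.4, 5.19, 14.2 and 33.8 CPM in replicates 1 to 4 of the libraries labelled NHD13/MSI2 (log2 fold change -1.86, adjusted p = 0.0278). Acvr2a, a type II receptor for activin, differed from control by -1.35 (adjusted p = 0.0165). Bmpr1a, a type I receptor for bone morphogenetic proteins, had 0.164, 1.99 and 2.08 CPM in control and no count elsewhere except 0.150 CPM in NHD13/MSI2 replicate 2 (adjusted p = 0.0327, not called). By calls, 1 of the 4 tested type II receptors and 1 of the 5 tested type I receptors were thus lower than control. By overlap, 3 of 4 (Tgfbr2, Bmpr2 and Acvr2a) and 2 of 5 (Acvr1b and Bmpr1a) lay under every control library, as did 20.4% of all tested genes. The median log2 difference was -1.50 over the type II and 0.20 over the type I receptors, and whether the types differ was not tested.

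With all 9 libraries no listed gene downstream of the receptors was called against control at an adjusted p under 0.01. Of all tested genes 11.0% were called in that comparison. Several of these downstream genes came close, and Smad3 was called without NHD13/MSI2 replicate 4 (adjusted p = 0.00239 by edgeR). Id2, a target gene and inhibitor of differentiation factors, had 13.6 to 31.7 CPM in control, 22.8 and 10.3 CPM in NHD13, and 53.0 to 76.0 CPM in the libraries labelled NHD13/MSI2, all above control (log2 difference 1.49, adjusted p = 0.0126 by edgeR). Nedd4l, a ubiquitin ligase, was at 11.5 to 12.3 CPM in control and at 19.2 to 37.0 CPM in those libraries (1.10, adjusted p = 0.0122). Usp9x, a deubiquitinase that acts on SMAD4, was at 134 to 152 against 86.4 to 105 CPM (-0.55, adjusted p = 0.0113), and the corepressor Ski, the relative of Skil, at 15.8 to 16.2 against 6.70 to 10.3 CPM (-0.93, adjusted p = 0.0155). In each of these 4 the libraries labelled NHD13/MSI2 did not overlap control. Of all tested genes 15.3% lay above control without overlap and 20.4% below it. These 4 were picked after their values were seen. The 4 tested receptor-regulated Smads had a median log2 difference from control of -0.37 in the libraries labelled NHD13/MSI2, the 2 inhibitory Smads 0.86 and the 4 corepressors -0.0096. Smad5, the most abundant Smad of the list and one that carries bone morphogenetic protein signals, had 135 to 156 CPM in control, 115 and 90.2 CPM in NHD13, and 90.3 to 124 CPM in the libraries labelled NHD13/MSI2 (log2 fold change -0.49, adjusted p = 0.0497 by edgeR). Of the remaining roles the most abundant genes were the co-receptor Eng (53.3 to 65.6, 27.1 to 52.4 and 24.4 to 68.3 CPM in the 3 groups), the corepressor Tgif1 (89.7 to 116, 92.7 to 108 and 102 to 122 CPM), the deubiquitinase Usp15 (355 to 367, 271 to 308 and 276 to 403 CPM) and the target gene Klf10 (283 to 354, 225 to 284 and 210 to 372 CPM). Their ranges overlapped between control and the libraries labelled NHD13/MSI2, and the adjusted p of these 4 lay between 0.445 and 0.537 by edgeR.

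The remaining marker lists are given beside these values, as sums in CPM in control, in NHD13 and in the libraries labelled NHD13/MSI2. Several sums rest on 1 or 2 genes and are no measure of a cell type. Erythroid markers (9, with Hba-a1 at 0 throughout) held 109 to 227, 13.1 to 42.7 and 3.04 to 19.1 CPM. Of their 6 tested genes 3 were called lower in the last group than in control, where 6.55% of all tested genes were. Mast cell and basophil markers (5) held 18.1 to 67.4, 8.51 to 16.6 and 4.22 to 9.95 CPM, with 2 of 4 tested genes called lower. Late neutrophil markers (7) held 909 to 2488, 141 to 524 and 200 to 625 CPM, with none called and 6 at an unadjusted p under 0.05. The macrophage sum (6 genes) of 33.7 to 51.0, 95.1 to 158.6 and 176 to 277 CPM was mostly Cd68, the 1 gene called (162 to 261 CPM in the last group). The B cell sum (8) of 46.6 to 63.5, 83.7 to 130.8 and 262 to 449 CPM was mostly Cd79a and Cd79b, called higher with Pax5, while Ebf1 and Igll1 had negative differences (-2.53 and -3.41, not called). The T cell sum (8) of 41.7 to 53.9, 224 to 225 and 149 to 241 CPM was mostly Lck and Cd6. Of its 5 tested genes Cd5 and Cd6 were called higher in the last group than in control, where 4.49% of all tested genes were. Lck, Cd5 and Cd6 were called higher in NHD13 than in control, where 0.824% of all tested genes were. Cd3d, Cd3e and Cd3g were under 1 CPM in every library. The endothelial sum (5) of 217 to 300.0, 373 to 408 and 444 to 566 CPM was mostly Pecam1, called higher (437 to 558 CPM in the last group), whereas Emcn (-7.24) and Esam (-3.62) were called lower and the list's median was -3.93 against control (-3.23 with genes at the floor set to their bound). The stromal sum (7) of 47.5 to 87.8, 44.8 to 66.9 and 1.49 to 36.7 CPM was mostly Pdgfrb in control (40.7 to 80.8 CPM), the 1 gene called lower, while the list's median was 1.62. The sort was for CD45.2 Lin lo Sca1+ Kit+ cells, and how far it removed stromal cells and mature cells of these lineages was not tested. The part of any such cells in the members' values was not tested.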

How the data were processed

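RNA-seq libraries of LSKs (3 control, 2 NHD13, 4 NHD13/MSI2) were read from a single table of whole-number counts per gene symbol, deposited by the authors without normalization or pooling. The submitters' processing notes name STAR, HTSeq, DESeq and the build mm9; their settings, and whether counting used strand, are not given in the sources used here. Of 24073 rows, 11942 names after the March genes were moved down by 2 rows, and the 13 rows left without a name (0.0253% to 0.0323% of a library) were dropped. Groups came from the labels.

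Counts were filtered by filterByExpr, scaled by TMM and fitted with the quasi-likelihood test of edgeR 4.0.16 in R 4.3.3 over all 9 libraries, with 3 contrasts and a joint test. Genes with a p under 0.01 after Benjamini-Hochberg adjustment were called. CPM use TMM library sizes, and likeness used log2 CPM with a prior count of 2. Standard errors were derived from the fitted fold change and its F statistic, on 6 residual and 3.38 prior degrees of freedom. Totals of 19242153 to 23013493 counts put 3 counts at 0.120 to 0.195 CPM; the floor of 3 counts covers counting error only. Lengths and positions are GENCODE M21 on GRCm38, and promoters are RefSeq's on GRCm38.p6. The script was tested on simulated counts.

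Genes named are the 10 members, the genes of the pathway list past the threshold in any contrast and the most abundant of each role, the 2 genes most like each called member, Msi2 and the marker lists; Acvr2a, Bmpr1a, Id2, Nedd4l, Usp9x, Ski and single marker genes were added after their values were seen. The members and lists were chosen with earlier results of these data known. Alternatives were names as deposited, each library left out in turn, the replicate number as a block, a fit of the 2 groups compared alone, a robust fit, RLE factors, no filter or a mean of at least 50 counts, a threshold of 0.05, and DESeq2 1.42.0.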

Additional observations from a re-analysis of the deposited data

Results flagged for a closer look

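Among the 4 libraries labelled NHD13/MSI2, replicate 4 stood far from the other 3 in 3 of the 23 genes examined, by a gap to the nearest replicate that took up more of the group's range than Dixon's 95% limit for 4 samples. Skil was at 159.65 CPM in replicate 4 and at 30.5 to 35.4 CPM in the others, a gap of 0.962 of the range. Smad3 was at 81.8 CPM against 22.2 to 28.7 CPM, a gap of 0.892. Msi2 was at 241 CPM against 77.1 to 88.0 CPM, a gap of 0.933. Chance flags about 1 in 20 such groups, and the 3 flags fall on the same library, so they are not independent of each other. That library also had the lowest TMM factor (0.785), and the part of this in the 3 values was not tested.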

How the results depend on the processing

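Under another test, scaling or filter the fall of Tgfbr2 in the libraries labelled NHD13/MSI2 against control kept its call: DESeq2 (adjusted p = 4.58e-05), RLE factors, no filter, a mean of at least 50 counts, a robust fit and only the 2 groups compared. Members called in that comparison were 1 as reported, 2 with DESeq2 and at an adjusted p under 0.05, 0 with names as deposited and 0 to 1 with a library left out; the joint test went from 0 to 1 with DESeq2, at 0.05, with the block, and 0 to 1 with a library left out. No member was called over NHD13, or in NHD13 over control, with any library left out (0 to 0 in both). Pathway genes called over NHD13 (1 as reported) were 7 with DESeq2 and at 0.05, 0 with a mean of at least 50 counts, the block or only the 2 groups, and 0 to 3 with a library left out; over control (7) they were 15 with DESeq2, 17 at 0.05 and 1 to 16 with a library left out, and in NHD13 over control (0) 2, 2 and 0 to 2. All genes called over NHD13 were 423 as reported, 1286 with DESeq2, 1177 at 0.05, 203 with the block, 30 with only the 2 groups and 128 to 646 with a library left out; over control 1474, 2589 with DESeq2, 2745 at 0.05 and 647 to 2066 with a library left out; in NHD13 over control 138, 594 with DESeq2, 386 at 0.05, 83 with only the 2 groups and 38 to 251 with a library left out. The share of calls that were lower was 81.6% over NHD13 and 69.1% with DESeq2, and 20.3% and 37.4% in NHD13 over control.

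With names as deposited the rows differ, and signs turned: over NHD13 Tgfbr1 -2.84, Tgfbr2 1.57, Tgfbr3 0.16, Smad4 0.064, Smad6 -0.47 and Skil -0.82; over control Tgfb1 -0.27, Tgfbr1 -1.75, Tgfbr2 0.88, Tgfbr3 0.22, Smad4 0.023, Smad6 -0.38, Smad7 -0.49 and Skil -0.93; in NHD13 over control Tgfb1 -0.16, Tgfbr3 0.052, Smad4 -0.041, Smad7 -0.48 and Skil -0.11. Smad3 over NHD13 (-0.0022) was 0.025 with DESeq2, 0.023 with RLE factors and 0.015 with a mean of at least 50 counts. With a library left out, signs turned over these ranges: over NHD13 Tgfbr3 -2.08 to 0.092, Smad3 -0.60 to 0.22, Smad7 -0.30 to 0.35 and Skil -0.49 to 0.72; over control Smad2 -0.022 to 0.068 and Skil -0.23 to 0.98; in NHD13 over control Tgfbr1 -0.14 to 0.22, Tgfbr3 -1.93 to 0.25, Smad2 -0.075 to 0.0034, Smad4 -0.022 to 0.20 and Smad6 -0.31 to 1.19. Given the 2-row move, a symbol as deposited stands on the counts of another gene, so the values under names as deposited belong to other genes. The cause of the other sign turns was not tested.

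Whether the replicate numbers pair the samples was not settled. Deviations of same-numbered libraries correlated at -0.0716 to 0.194, and 5 of 9 libraries correlated best with their own number. NHD13/MSI2 replicate 4 has no partner of its number. As a block the number gives replicate 4 a term of its own. Under this block Tgfbr2 over control was -1.69 (adjusted p = 0.0216 by edgeR, not called), Smad3 -0.87 and called (0.00373), and Skil -0.51 over NHD13 and -0.23 over control.

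Low counts limit Tgfb1 and Smad6, with 23 to 81 counts a library, and 2 NHD13 libraries that differ limit every comparison with that group. A fit without 1 NHD13 library takes the spread from the other groups.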
